A study of Mus musculus with 4 samples.

Results

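Imprinted genes are transcribed mainly from the copy inherited from a single parent. This account covers 6 of them, Peg3, Mest, Peg10, Snrpn, Plagl1 and Igf2r, each as a window of mouse build mm9, in maps of H3K4me3 and H3K27me3. The members are all called regions that share at least 1 bp with a window, which gave 32 regions of 76945 in the 4 lists. Of these, 10 were H3K4me3 regions in CGR8 and 9 in R1, and 6 were H3K27me3 regions in CGR8 and 7 in R1. The genes and windows were not chosen by measured values, but they were proposed with results of these data in view.

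The cells were rosette stem cells, pluripotent cells between the naive and the primed state, mapped by chromatin immunoprecipitation and sequencing. They were made from the embryonic stem cell lines CGR8 (strain 129/Ola) and R1 (strain 129), which had spent 8 days in N2B27 medium with LIF, 2 µM IWP2, a blocker of WNT secretion, and 1 µM PD325901, a MEK inhibitor. Each line gave 1 library per mark, so each mark has n = 2 lines, and all 4 libraries share the same treatment. A difference between CGR8 and R1 has no replicate check within a line, and none is tested here. The published cells of other states named in the series were not analysed here.

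At most imprinted genes, a stretch of DNA methylated on a single parental copy, the imprint, decides which copy is used. The unmethylated copy of such a stretch typically carries H3K4me3, the mark of active and poised promoters. H3K27me3, the mark of Polycomb repressive complex 2, can be found at imprinted genes as well. The lists do not separate the parental copies or the cells of a culture, so 2 marks called at a place cannot be assigned to the same copy or to different ones.

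The lists held 25241 H3K4me3 regions in CGR8 and 24618 in R1, and 14575 H3K27me3 regions in CGR8 and 12511 in R1. The median width was 2000 bp for H3K4me3 in each line, and 7600 bp in CGR8 and 6400 bp in R1 for H3K27me3. Read totals were not given. The scores of regions of up to 400 bp were all explained, within 1e-06, by a mean of 0.740 reads per 200 bp window in CGR8 and 0.706 in R1 for H3K4me3, and of 2.11 in CGR8 and 1.92 in R1 for H3K27me3, the last from 2 regions only. A place without a region may still carry the mark below what could be called at such depth. Each region has a score made by the authors, used here through its rank in its own list and given as the share of that list with a lower score.

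The promoters of 5 of the 6 genes were found by symbol in the RefSeq promoter table of build GRCm38.p6. Shown are those of the genes whose best H3K4me3 region had the highest (Peg3) and the lowest (Plagl1) score percentile. The promoter of Igf2r, the only maternally expressed gene of the 6, was added after the values were seen. Each sequence is the 250 bases before the annotated start, read 5′ to 3′, with CpG dinucleotides, the sites of mammalian DNA methylation, in capitals. Peg3 is from chr7:6730420-6730669 (minus strand), Plagl1 from chr10:13090582-13090831 (plus strand) and Igf2r from chr17:12769707-12769956 (minus strand). These positions are on GRCm38.p6 and were not converted to mm9, so the sequences were not placed inside the called regions.
Peg3: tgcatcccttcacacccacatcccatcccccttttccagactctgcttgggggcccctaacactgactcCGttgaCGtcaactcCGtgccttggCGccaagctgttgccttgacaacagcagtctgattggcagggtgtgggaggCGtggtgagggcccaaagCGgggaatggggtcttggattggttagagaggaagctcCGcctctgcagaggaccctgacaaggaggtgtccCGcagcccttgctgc
Plagl1: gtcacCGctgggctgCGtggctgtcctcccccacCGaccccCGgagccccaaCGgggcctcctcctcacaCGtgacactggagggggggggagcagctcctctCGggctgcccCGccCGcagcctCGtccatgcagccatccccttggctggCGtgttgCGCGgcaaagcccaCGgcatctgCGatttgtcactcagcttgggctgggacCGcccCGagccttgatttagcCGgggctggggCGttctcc
Igf2r: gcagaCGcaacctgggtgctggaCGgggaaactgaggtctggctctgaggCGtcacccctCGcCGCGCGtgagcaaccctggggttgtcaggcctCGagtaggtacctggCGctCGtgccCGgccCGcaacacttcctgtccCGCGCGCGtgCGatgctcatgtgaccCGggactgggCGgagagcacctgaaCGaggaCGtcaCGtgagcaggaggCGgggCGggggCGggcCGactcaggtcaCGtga

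These 3 promoters differed in CpG content. The Igf2r sequence held 27 CpGs, more than 91.4% of the 32851 promoters of the table, and Plagl1 held 19, more than 80.3%. Peg3 held 8 CpGs, more than 57.0% of promoters, against a table median of 6. For Mest the table gave 3 stretches, with 7, 14 and 14 CpGs, and for Snrpn 4 stretches with 2 to 4 CpGs, fewer than the median. The imprint itself can lie downstream of a start, and these counts describe only the 250 bases before it. The Peg3 stretch overlaps that of Usp29, its neighbour on the opposite strand, and the last Snrpn stretch is the same as that of Snurf.

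H3K4me3 was called in all 6 windows in both lines. H3K27me3 was called in both lines at Peg10, Plagl1 and Igf2r, in R1 alone at Mest, in CGR8 alone at Snrpn, and in neither line at Peg3. Per line the windows held a mean of 9.5 ± 0.707 H3K4me3 and 6.5 ± 0.707 H3K27me3 regions (SD, n = 2). In CGR8, 5 of 10 H3K4me3 regions overlapped H3K27me3, and in R1 7 of 9, beside 28.2% and 29.1% of all H3K4me3 regions of CGR8 and R1. In CGR8, 5 of 6 H3K27me3 regions overlapped H3K4me3, and in R1 7 of 7, beside 41.3% and 48.8% of the whole lists. Cut into tiles of 20, 40, 70 and 110 kb, the widths of the windows, chromosomes 6, 7, 10 and 17 had H3K4me3 in both lines in 16.0%, 24.9%, 34.1% and 42.1% of tiles. H3K27me3 in both lines was found in 9.26%, 14.6%, 21.6% and 28.6% of those tiles, and both marks in both lines in 5.17%, 9.71%, 16.0% and 23.0%. The windows were drawn around known genes and the tiles were not, so nothing particular to imprinted genes is read from these counts.

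**Figure D1:**
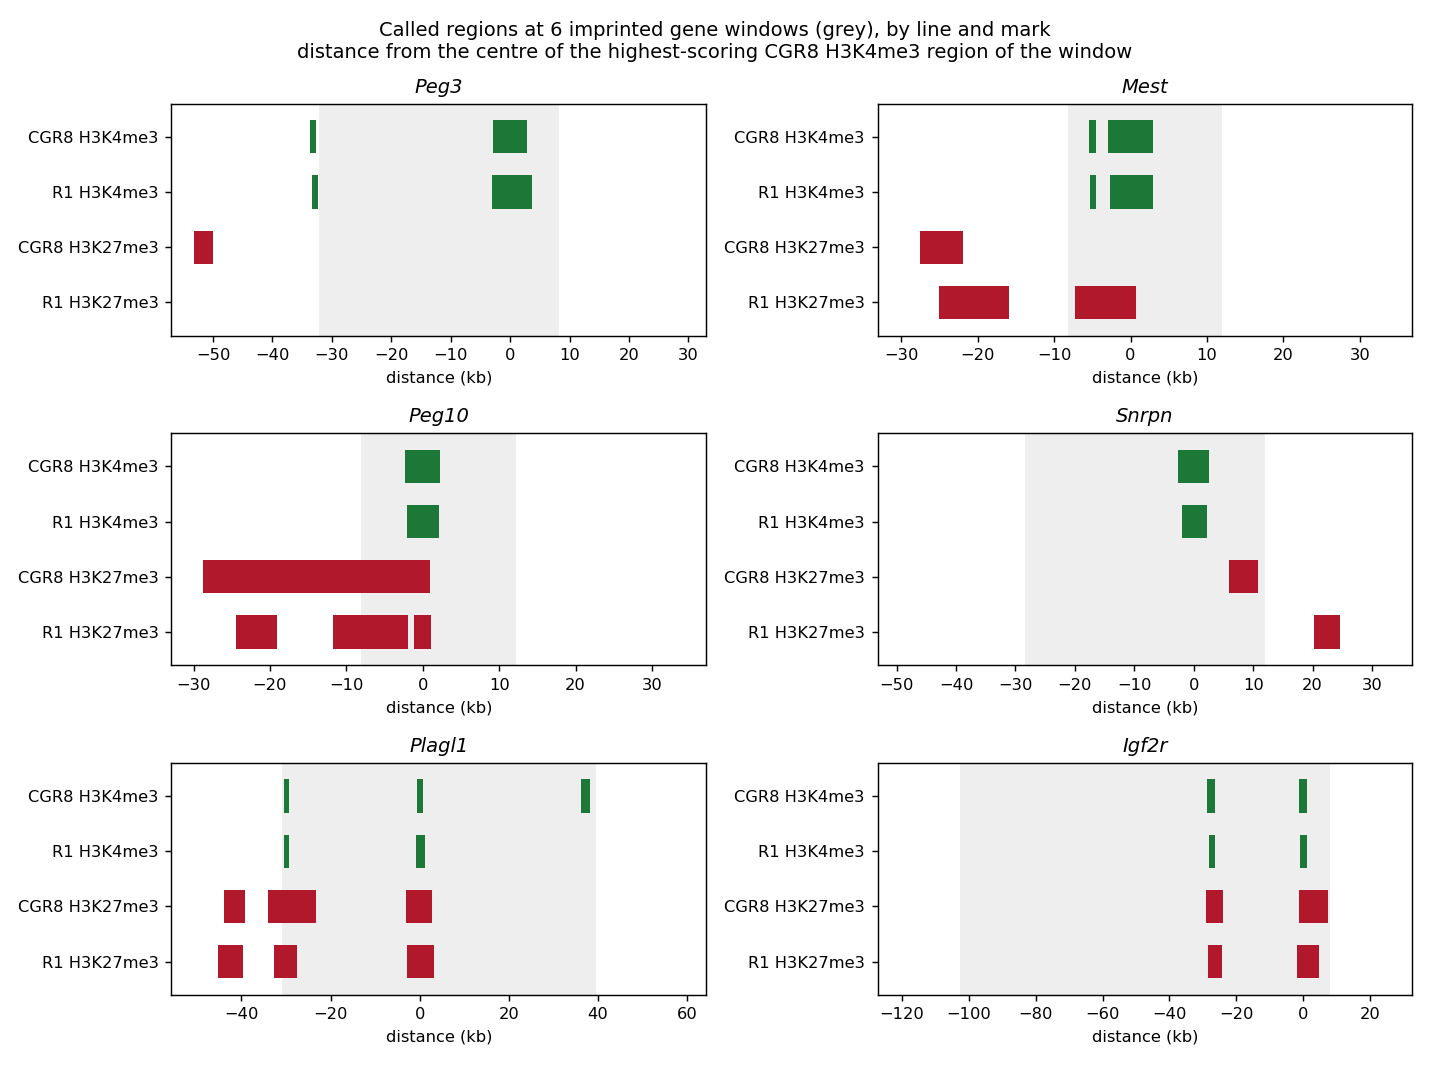
Called regions at the 6 windows (grey bands), with distance in kb from the centre of the highest-scoring CGR8 H3K4me3 region on the horizontal axis and the 4 libraries as rows, H3K4me3 in green and H3K27me3 in red. Regions outside the grey bands are shown but are not members. H3K27me3 lies over H3K4me3 at Peg10, Plagl1 and Igf2r in both lines and at Mest in R1, and in neither line at Peg3 or Snrpn.

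The widest H3K4me3 lay in the windows of 4 paternally expressed genes, Peg3, Mest, Snrpn and Peg10. Each of these windows had a single H3K4me3 region of at least 4 kb in each line, 4 of 10 member regions in CGR8 and 4 of 9 in R1, beside 11.3% and 10.2% of all H3K4me3 regions of CGR8 and R1. The H3K4me3 regions at Plagl1, which is also paternally expressed, and at Igf2r were 1.2 to 2.4 kb wide in CGR8. In R1 they were 1.2 to 2.2 kb wide, beside a list median of 2000 bp. The narrowest, at Plagl1, was wider than 15.0% of the CGR8 list and 16.9% of the R1 list, and the widest, at Igf2r, than 60.6% and 55.9%. Of the 4 wide regions, 1 overlapped H3K27me3 in CGR8 (Peg10) and 2 in R1 (Peg10 and Mest).

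**Figure D2:**
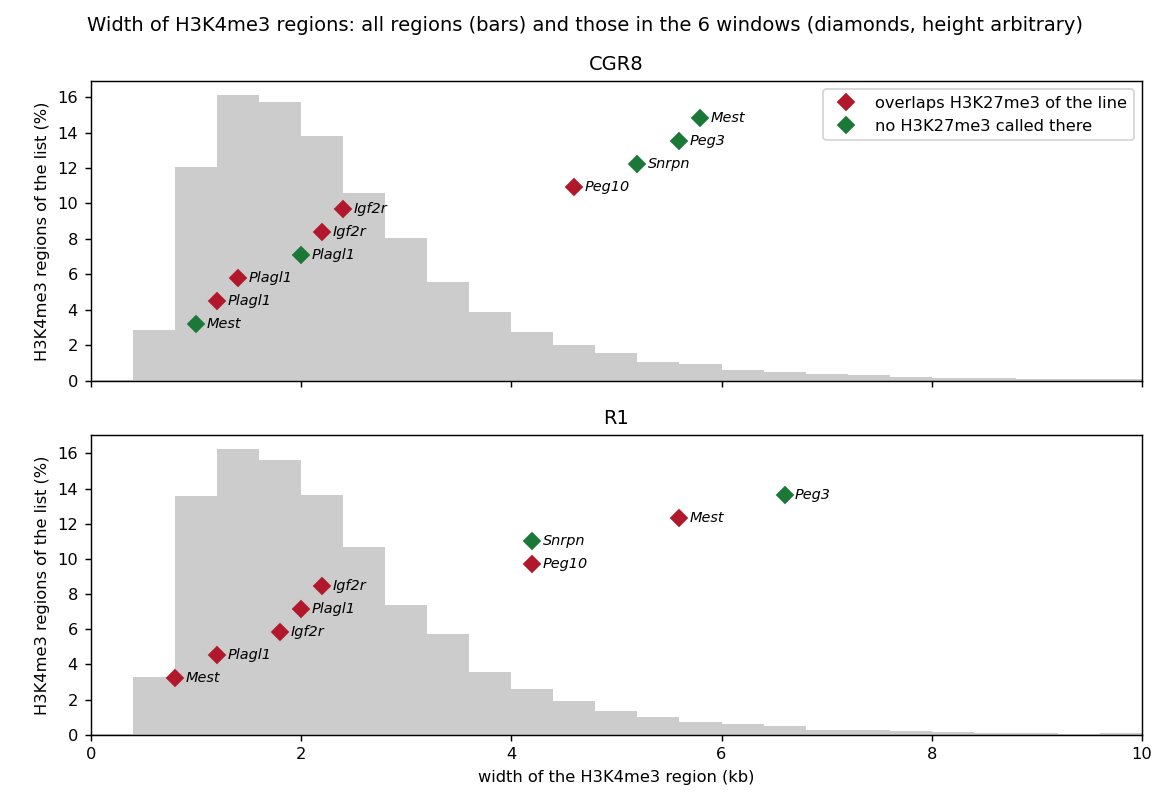
Width in kb of H3K4me3 regions (horizontal axis) against the share of the list in percent (grey bars, 400 bp classes), for CGR8 above and R1 below; regions wider than 10 kb lie beyond the axis. Diamonds are the 10 and 9 regions in the windows, red where H3K27me3 of the line overlaps them, and their height carries no value. The regions of at least 4 kb are those of Peg3, Mest, Snrpn and Peg10 in both lines.

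Peg3 encodes a zinc finger protein expressed from the paternal copy, and it was the window with H3K4me3 alone in both lines. Its region ran on chromosome 7 from 6679201 to 6684800 in CGR8 (5.6 kb, score 1799) and from 6679001 to 6685600 in R1 (6.6 kb, score 3475). It ranked 3944 of 25241 in CGR8 and 748 of 24618 in R1, above 84.4% and 97.0% of its list. This was the highest H3K4me3 rank by score of any window in each line. By score per kb it stood above 62.8% of the CGR8 list and 77.8% of the R1 list, below the higher-scoring Igf2r region at 81.5% and 80.9%. The region was wider than 96.1% of the CGR8 list and 98.3% of the R1 list. The nearest H3K27me3 region was 3.2 kb wide and 18 kb before the window in CGR8, and 11.8 kb wide and 112.8 kb before it in R1. A 1 kb H3K4me3 region lay just outside the window in each line, 0.6 kb before it in CGR8 and 0.4 kb in R1, and ranked 17248 and 14309.

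Snrpn encodes a core protein of spliceosomal particles, expressed from the paternal copy together with the overlapping Snurf. Its H3K4me3 region ran on chromosome 7 from 67145601 to 67150800 in CGR8 (5.2 kb, rank 4793) and from 67146201 to 67150400 in R1 (4.2 kb, rank 6305). It stood above 81.0% of the CGR8 list and 74.4% of the R1 list. In neither line did H3K27me3 reach it. In CGR8 an H3K27me3 region of 4.8 kb ran from 67154201 to 67159000, 3400 bp beyond the H3K4me3 region, with a score of 83.7 and rank 12006 of 14575, and R1 had none there. The nearest R1 region was 4.4 kb wide, from 67168401 to 67172800, 8.4 kb past the window. Both H3K27me3 calls were low in their lists, above 17.6% of the CGR8 list and 28.6% of the R1 list.

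Mest, which encodes a protein of the alpha/beta hydrolase fold, is expressed from the paternal copy, and its window was the only one with H3K27me3 over H3K4me3 in a single line. A wide H3K4me3 region ran on chromosome 6 from 30685201 to 30691000 in CGR8 (5.8 kb, rank 6938) and from 30685401 to 30691000 in R1 (5.6 kb, rank 3356). A small region preceded it by 1600 bp in CGR8 and 1800 bp in R1, from 30682601 to 30683600 in CGR8 (rank 20276) and from 30682801 to 30683600 in R1 (rank 21473). The wide region stood in the upper part of both lists, above 72.5% and 86.4% of regions in CGR8 and R1, and the small one low, above 19.7% and 12.8%. No H3K27me3 was called in the window in CGR8, where the nearest region ended 13.8 kb before it (5.6 kb wide, score 90.9). In R1 an H3K27me3 region ran from 30680801 to 30688800 (8 kb, score 207, rank 3733 of 12511). It covered all of the small H3K4me3 region and 60.7% of the wide one. Its score stood above 70.2% of the R1 list, so it was not among the weakest calls of that list. With Mest in R1 and Snrpn in CGR8 found in a single line, a partner in the other line existed for 5 of 6 H3K27me3 members of CGR8 and for 6 of 7 of R1, beside 67.1% and 81.1% of the whole lists of CGR8 and R1.

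Peg10 derives from a retrotransposon, is required for placental development in the mouse and is expressed from the paternal copy, as is Sgce, its neighbour in the annotation. Its window held the broadest and highest-ranking H3K27me3 of the 6. In CGR8 a single region ran on chromosome 6 from 4669201 to 4698800 (29.6 kb, score 1298, rank 337 of 14575), of which 8.8 kb lay in the window. In R1 the mark was called in pieces, from 4686201 to 4696000 (9.8 kb, score 528, rank 1267 of 12511) and from 4696801 to 4699000 (2.2 kb, score 128, rank 5729), with 800 bp between them. A further R1 piece of 5.4 kb, from 4673401 to 4678800, lay before the window (score 68.4). Together the R1 pieces covered 58.1% of the CGR8 region. The right-hand end, the one at the higher coordinate, was nearly the same in both lines, at 4698800 in CGR8 and 4699000 in R1.

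The H3K4me3 region of Peg10 ran from 4695601 to 4700200 in CGR8 (4.6 kb, rank 9666) and from 4695801 to 4700000 in R1 (4.2 kb, rank 6809). The Polycomb mark lay over 69.6% of its bases in CGR8 and 57.1% in R1, in its left part in each line. In CGR8 both marks thus met at the edge of a broad H3K27me3 region that extended to a single side of the H3K4me3 region. In R1 the 9.8 kb H3K27me3 region shared only 200 bp with the H3K4me3 region. The separate 2.2 kb one lay wholly inside the H3K4me3 region. The H3K4me3 score of Peg10 stood above 61.7% of the CGR8 list and 72.3% of the R1 list.

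Plagl1, a zinc finger transcription factor expressed from the paternal copy, had H3K4me3 regions inside wider H3K27me3 regions at the same places in both lines. On chromosome 10, H3K4me3 ran from 12810001 to 12811400 in CGR8 (1.4 kb, score 400, rank 11933) and from 12809801 to 12811800 in R1 (2 kb, score 591, rank 10436). It lay in H3K27me3 from 12807601 to 12813400 in CGR8 (5.8 kb, rank 5712) and from 12807801 to 12814000 in R1 (6.2 kb, rank 4981). These H3K27me3 regions stood above 60.8% of the CGR8 list and 60.2% of the R1 list. All of the H3K4me3 region was covered by H3K27me3 in each line.

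A further place with both marks lay at the left edge of the Plagl1 window, its centre 29.9 kb away in CGR8 and 30.0 kb in R1. There H3K4me3 had the same bounds in both lines, 12780201 to 12781400 (1.2 kb, rank 12024 in CGR8 and 12133 in R1). The H3K27me3 region around it was 10.8 kb wide in CGR8 (12776601 to 12787400, rank 2850) and 5.2 kb in R1 (12778001 to 12783200, rank 2755). A weak H3K4me3 region from 12847001 to 12849000 was called in CGR8 alone (2 kb, score 70.2, rank 20131), without H3K27me3. No annotation on mm9 was used here, so it was not determined which of these places holds the start of Plagl1, of Hymai, the noncoding RNA next to it in the annotation, or of another gene.

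Igf2r encodes the receptor that takes up and degrades IGF2, and in the mouse it is expressed from the maternal copy in most tissues. In those tissues the paternal copy transcribes Airn, an antisense noncoding RNA that starts inside Igf2r and silences it. Which copies were used in these cells was not determined. The window held 2 places with both marks, the same in both lines, with centres of H3K4me3 27.7 kb apart in CGR8 and 27.6 kb in R1. On chromosome 17 the higher-scoring H3K4me3 region ran from 12961201 to 12963400 in CGR8 and from 12961401 to 12963600 in R1 (2.2 kb in each), with rank 6226 in CGR8 and 6237 in R1. It lay in H3K27me3 from 12961001 to 12969800 in CGR8 (8.8 kb, score 235, rank 4067) and from 12960601 to 12967000 in R1 (6.4 kb, score 230, rank 3397). The ranks of this place were thus close between the lines for both marks, above 75.3% and 74.7% of the H3K4me3 lists and 72.1% and 72.8% of the H3K27me3 lists of CGR8 and R1.

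The other Igf2r place scored lower for both marks. H3K4me3 ran from 12933401 to 12935800 in CGR8 (2.4 kb, score 394, rank 11994) and from 12934001 to 12935800 in R1 (1.8 kb, score 341, rank 12517). H3K27me3 ran from 12933201 to 12938400 in CGR8 (5.2 kb, score 112, rank 8741) and from 12933801 to 12938000 in R1 (4.2 kb, score 113, rank 6409). These H3K27me3 regions stood above 40.0% of the CGR8 list and 48.8% of the R1 list by score. By score per kb they stood above 56.4% and 65.2%. Whether the 2 places hold the starts of Igf2r and Airn was not determined, for want of an annotation on mm9. Igf2r lies on the minus strand and Airn starts inside it, so the Igf2r start would be the one at the higher coordinate. At both places H3K27me3 covered the whole H3K4me3 region in each line, and it extended further to the right than to the left.

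**Figure D3:**
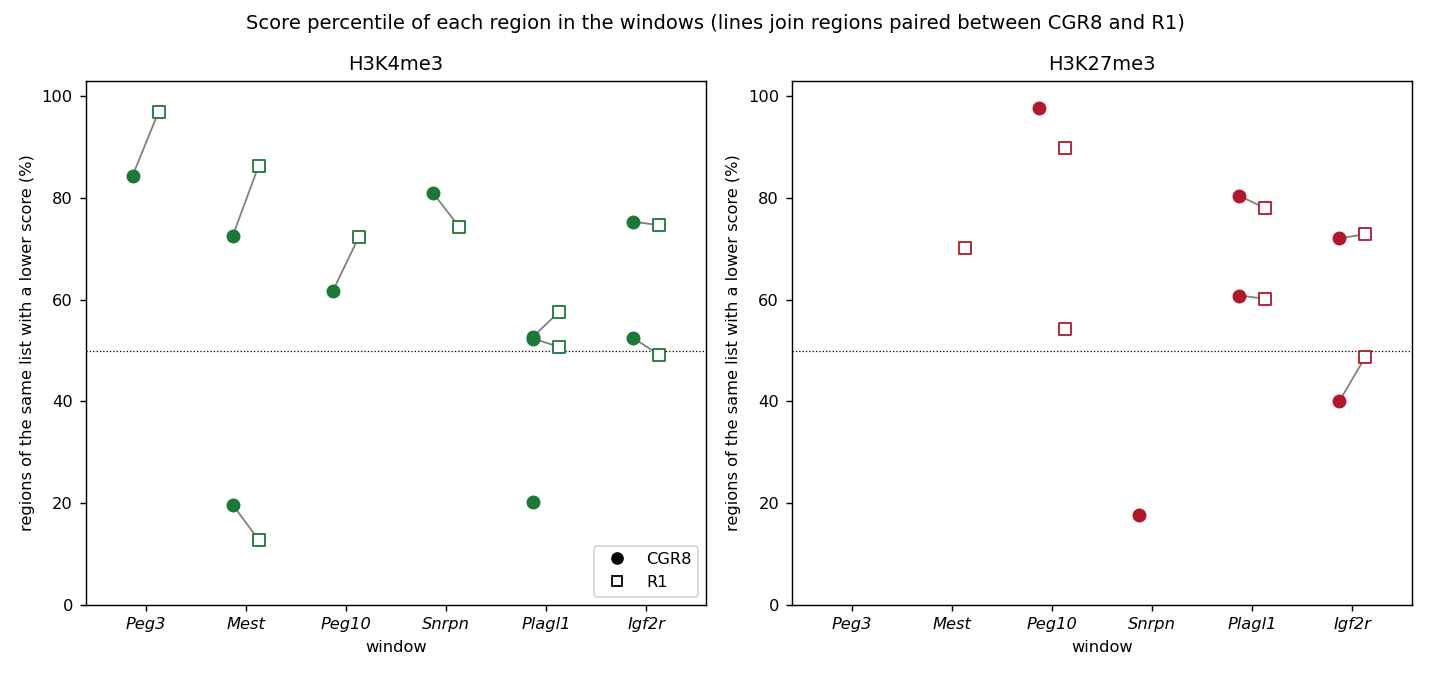
Share of the regions of the same list with a lower score, in percent (vertical axis), for each region in the 6 windows, H3K4me3 at left and H3K27me3 at right. Filled circles are CGR8, open squares R1, and lines join regions paired between the lines; the dotted line marks the middle of a list. H3K4me3 of Peg3, of the wide Mest region and of Peg10 stands lower in CGR8 than in R1, while the Igf2r and Plagl1 pairs lie closer together.

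The lines were then compared region by region. A pair is a CGR8 and an R1 region that each overlap only the other, of which there were 21972 for H3K4me3 and 8167 for H3K27me3. Among them were 9 H3K4me3 pairs in the windows, out of 10 member regions in CGR8 and 9 in R1, and 4 H3K27me3 pairs, 2 at Plagl1 and 2 at Igf2r. A partner in the other line was found for 9 of 10 H3K4me3 members of CGR8 and for 9 of 9 of R1, beside 89.8% and 92.6% of the whole lists of CGR8 and R1. Over all pairs the median log2 ratio of scores, CGR8 over R1, was 0.03 for H3K4me3 and 0.25 for H3K27me3, and the 5th and 95th percentiles for H3K4me3 were -0.61 and 0.76. Scores grow with depth, and the mean reads per window also differed between the lines, so a ratio is read against the other pairs.

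H3K4me3 at 3 of the 4 wide regions scored lower in CGR8 than in R1, at the low end of all pairs. The log2 ratio was -0.95 at Peg3, below all but 1.46% of the pairs, -0.78 at the wide Mest region, below all but 2.76%, and -0.73 at Peg10, below all but 3.35%. Snrpn, the remaining wide region, had a ratio of 0.34, with 82.5% of pairs lower. For the other paired H3K4me3 regions within 1 Mb of these windows, only the median ratio was computed. It was -0.02 around Peg3 (25 pairs), 0.09 around Mest (28 pairs) and -0.21 around Peg10 (14 pairs). Around Snrpn only 2 pairs were found, with a median of -0.28. Single neighbours can lie away from such a median. The region just before the Peg3 window scored 113 in CGR8 and 209 in R1. The nearest one before the Mest window scored 571 in CGR8 and 454 in R1.

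Among the 9 pairs, the same 3 regions moved furthest in rank. The percentile shift, CGR8 minus R1, was -12.6 points at Peg3, -13.9 at the wide Mest region and -10.6 at Peg10, beside a median absolute shift of 2.84 over all pairs. These shifts were larger than those of 92.4%, 93.9% and 89.6% of pairs. Their bounds differed by at most 800 bp between the lines, and 84.8%, 96.6% and 91.3% of the bases of a pair were covered in both, beside a median of 83.3% over all pairs. With 1 library per line and mark, a property of the line and of its library cannot be told apart.

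The narrower H3K4me3 regions had ratios on both sides of 0, and whether narrow and wide regions differ in this was not tested. At Igf2r the ratios were 0.01 at the higher-scoring place and 0.21 at the other, and at Plagl1 0.03 at the left edge and -0.56 at the other place, the last with 5.98% of pairs lower. The small Mest region had a ratio of 0.35. These values lie between the 5th and 95th percentiles of all pairs.

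H3K27me3 pairs of Plagl1 and Igf2r had log2 ratios of 0.20 and 0.15 at Plagl1 and of -0.02 and 0.03 at Igf2r, beside a median of 0.25 over all pairs. Their percentile shifts ran from -8.75 to 2.47 points, and the median absolute shift over all pairs was 7.70. The bases in common were 48.1% of a pair at the left edge of Plagl1 and 87.5% at its other place, and 65.2% at the higher-scoring Igf2r place and 80.8% at the other, beside a median of 74.4% over all pairs. The H3K27me3 pairs within 1 Mb had a median ratio of 0.22 around Plagl1 (6 pairs) and of 0.76 around Igf2r (3 pairs). Peg10 has no pair by this definition, since the CGR8 region met 3 R1 regions.

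**Figure D4:**
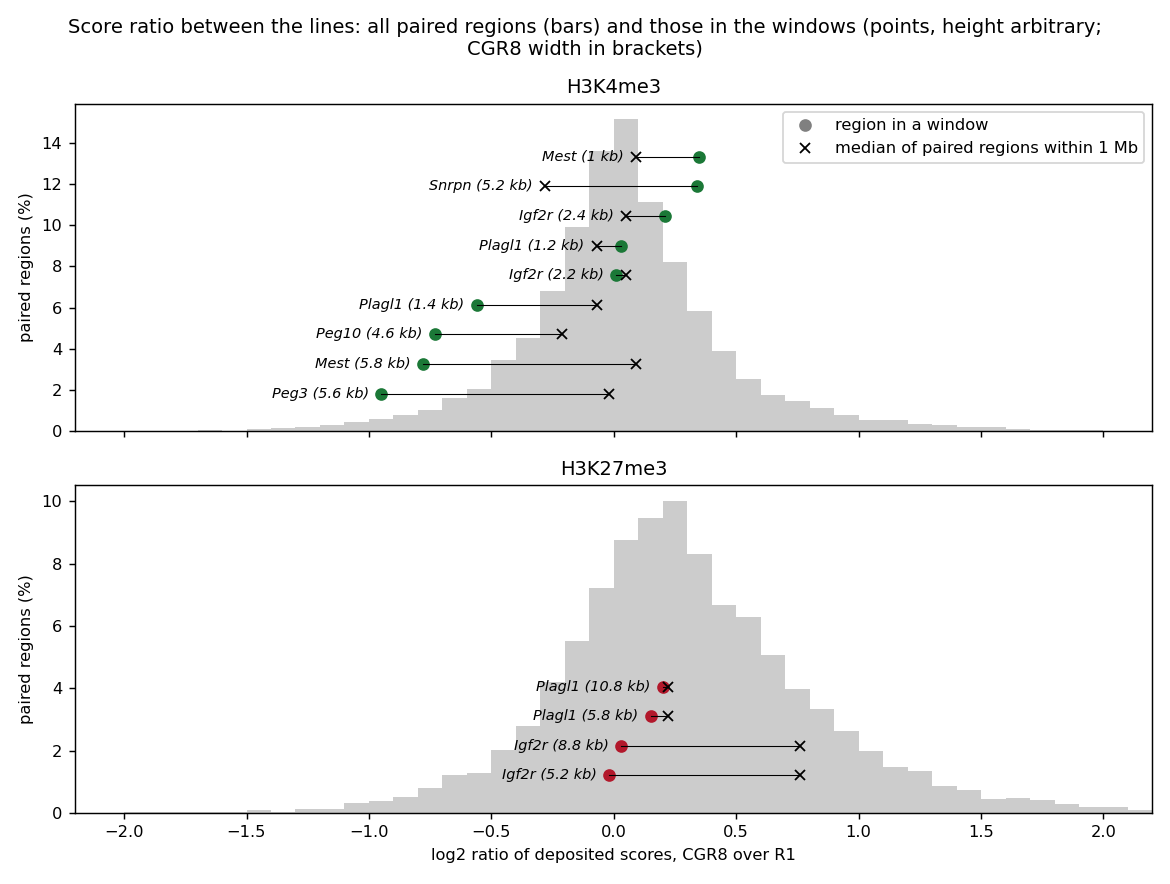
Log2 ratio of deposited scores, CGR8 over R1 (horizontal axis), for all paired regions as percent of pairs per class of 0.1 (grey bars) and for the pairs in the windows (coloured points, with the CGR8 width in brackets); crosses are the median of paired regions within 1 Mb, and the height of points carries no value. For H3K4me3, Peg3, the wide Mest region and Peg10 lie at -0.95, -0.78 and -0.73, to the left of their crosses.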

How the data were processed

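The authors deposited 1 list of called regions per library, with chromosome, start, end and a score without stated unit or formula. The submitters' processing notes name Bowtie2 2.0.2, SICER 1.1 and bedtools 2.20.1, with build mm9, and no settings, control library or threshold are given in the sources used here. The labels' protocol and characteristics name different suppliers for the H3K27me3 antibody. Calls lie on a 200 bp grid, and gaps joined in calling widen regions. Groups are the marks, with CGR8 as replicate 1 and R1 as replicate 2.

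Starts were counted from 1. Regions with at least 1 bp in a window were taken, overlaps counted from 1 bp, and ranks made within each list. Tiles ran to the last called position of each chromosome. The overlap and pairing functions were tested with partner regions planted on the CGR8 H3K4me3 list. Ranking and merging were tested on a small made-up list. No test was run, since each line has 1 library per mark. The members, windows and lists were chosen with earlier results of these data known, and all regions in the windows are named. The promoter rule also chose Peg10, for the widest H3K27me3 region, but the promoter table had no entry for it. Gene starts were not placed, since the gene table is on GRCm38.p6, and other imprinted genes were not analysed here. Python 3.11.15, numpy 2.4.6, pandas 2.3.3, scipy 1.17.1 and matplotlib 3.10.9 were used.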

Additional observations from a re-analysis of the deposited data

How the results depend on the processing

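Of 25 recomputed values, 24 stayed within 1.5 times the reported count or within 1 SD over the lines. Some of these could not have moved when a line was left out. A mean of 2 lines then always shifts by less than their SD. All 6 windows had H3K4me3 in both lines, so that count had to stay at 6. The tally is therefore no measure of how stable those values are. The exception was the number of windows with both marks in both lines, 3 as reported and 5 with windows extended by 20 kb on each side, which bring in H3K27me3 beside Mest and Snrpn. Leaving out either line gave 4 windows with both marks in the remaining line, a count that this step cannot lower. They included Mest in R1, and in CGR8 Snrpn, where the marks lay apart. Requiring at least 50% of a region inside the window gave 2 windows with both marks in both lines, without Peg10. All 6 windows kept H3K4me3 in both lines when only the higher-scoring 50% of each list was used, where the small Mest region, the weak Plagl1 region and the R1 region at the lower-scoring Igf2r place dropped out. The median score percentile of H3K4me3 regions in the windows was 64.8 (mean over lines), and 57.2 to 72.3 when either line was left out. No paired analysis was possible because no result comes from a test to which the line could be added as a block. Whether depth accounts for missing calls, such as H3K27me3 at Peg3, was not tested.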
